A study of Mus musculus with 47 samples.

Results

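Messenger RNA of neural progenitors that lack Foxa2 was compared with that of wild-type (WT) progenitors after 4.5 days of differentiation. The comparison rests on 6 of the 47 libraries of the series, 3 Foxa2-/- and 3 WT, chosen by their labels for genotype and day. The Foxa2-/- cells carry the line label C57BL/6 and the WT cells the label E14.5, so each difference between the genotypes is also one between lines. Both groups descended from mouse embryonic stem (ES) cells that were cultured as monolayers in N2B27. They received retinoic acid up to day 3.5 and SAG, an agonist of the hedgehog transducer Smoothened, up to day 4.5. Cells that displayed prominin, a surface protein of neural progenitors, were enriched on magnetic columns, and their poly-A RNA was sequenced with strand information. The labels give neither a clone number nor the extent of the deletion. The replicates are numbered but not said to be separate cultures, so a p-value here reflects only how these libraries vary, which may be technical.

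Foxa2 is a forkhead transcription factor that can bind its sites in closed chromatin, and it is required for the floor plate, the strip of cells at the ventral midline of the neural tube. Floor plate cells secrete Sonic hedgehog (SHH), which sets the identity of the progenitors above them by concentration, and netrins and slits, which guide axons. The progenitors next to the floor plate form the p3 domain, marked by the homeodomain factor Nkx2.2, and yield visceral motor neurons and later serotonergic neurons in the hindbrain.

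Levels are FPKM, the fragments of a gene per kilobase of its transcript, divided by the library's mapped fragments on a common scale. Depth, estimated from the spacing of low values, was 15400000 to 19100000 fragments in Foxa2-/- libraries and 14500000 to 23300000 in WT libraries. One fragment on a transcript of 2000 bases is then worth 0.0215 to 0.0344 FPKM, and levels under about 0.1 FPKM rest on a few fragments. Libraries correlated across genes with r of 0.957 to 0.967 among Foxa2-/- and 0.949 to 0.953 among WT libraries. The 7 neural progenitor markers summed to 1919 to 2088 FPKM in Foxa2-/- and 1719 to 2239 FPKM in WT libraries, and each stood above 1 FPKM in all 6. Vim made up most of these sums, averaging 1514 FPKM in Foxa2-/- and 1568 FPKM in WT cells. Prom1, the prominin gene, averaged 59.0 FPKM in Foxa2-/- and 79.1 FPKM in WT cells, and Sox3 22.2 and 8.29 FPKM. Sox2, a factor of neural progenitors, averaged 88.4 FPKM in Foxa2-/- and 82.1 FPKM in WT cells. The neural crest markers Sox10 and Foxd3 were under 0.1 FPKM in all 6 libraries. Tfap2a and Tfap2b, also listed for neural crest, averaged 0.0635 and 0.111 FPKM in Foxa2-/- cells, against 0.207 and 0.202 FPKM in WT cells. Of the endoderm markers, Foxa3 was listed at 0 in all 6 libraries. Gata6, Sox17 and Hnf4a averaged 1.36, 0.500 and 0.193 FPKM in Foxa2-/- cells, against 0.29, 0.0957 and 0.0358 FPKM in WT cells. Afp went the other way (0.00905 FPKM in Foxa2-/- and 0.0760 FPKM in WT cells). Single libraries stood apart in several respects. WT replicate 2 correlated with a Foxa2-/- library at 0.95, as high as with the WT library it was less like. The 6 endoderm markers summed to 1.33 FPKM in the lowest and 13.6 FPKM in the highest Foxa2-/- library, against 0.503 to 3.51 FPKM in WT libraries, mostly through Gata4, which had 0.869, 9.79 and 10.7 FPKM in Foxa2-/- replicates 1, 2 and 3. Pdgfra, which was listed as a glial marker, followed the same order with 1.01, 6.09 and 7.04 FPKM in Foxa2-/- libraries, against 0.547 to 1.36 FPKM in WT libraries, and the 4 glial markers summed to 2.36 to 8.52 FPKM in Foxa2-/- and 1.61 to 2.96 FPKM in WT libraries. The endothelial marker Cdh5 had 0.101, 0.730 and 1.13 FPKM in Foxa2-/- libraries, against 0.266, 2.78 and 2.70 FPKM in WT libraries, while the blood markers Ptprc and Hba-a1 were under 0.1 FPKM in all 6. Of the markers listed for mesoderm and notochord, T had 1.74 FPKM in WT replicate 1 and under 0.2 FPKM in the other 5 libraries. Noto had 0.104 FPKM in WT replicate 1 and was listed at 0 in the other 5, and Msgn1 was at 0 in all 6. Meox1 went the other way (means of 0.507 FPKM in Foxa2-/- and 0.403 FPKM in WT cells), and Tbx6 also averaged higher in Foxa2-/- cells. The 4 measured neuron markers summed to 82.4 to 124.5 FPKM in Foxa2-/- and 99.1 to 214 FPKM in WT libraries, with WT replicates 2 and 3 above WT replicate 1 in Stmn2 and Dcx. Within WT, replicate 1 had the highest level of 13 of 14 called floor plate genes (it was highest for 30.7% of all genes), and replicate 2 had the highest level of all 3 called p3 genes and all 4 called SHH targets (40.8% of all genes).

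Foxa2 itself (ENSMUSG00000037025, GRCm38 chr2:148042877-148046969) had 0.102, 0.266 and 0.0646 FPKM in the Foxa2-/- libraries, against 85.6, 62.2 and 46.5 FPKM in the WT libraries. The groups did not overlap, and the labels therefore matched the targeted gene in all 6 libraries.

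Differences are given as Foxa2-/- minus WT on the scale log2(FPKM + 1), with the standard error (SE) of limma's moderated test and a Benjamini-Hochberg adjusted p over the 17124 genes tested. A gene was called where this p was under 0.05. Because 1 is added to each level, changes of genes at low FPKM come out too small, and where one group is near 0 the difference is no bound on the fold. In bulk RNA, fewer cells of a type and less RNA per cell cannot be told apart.

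Far more genes fell than rose in Foxa2-/- progenitors. Of 17124 genes, 1285 were called (7.5%), 289 of them higher (1.69%) and 996 lower (5.82%) in Foxa2-/- cells, and 3200 had an unadjusted p under 0.05. The falls were also larger. Of the called genes, 469 were lower by 1 or more log2 units, 122 by 2 or more and 19 by 4 or more, whereas 103 were higher by 1 or more and 13 by 2 or more. The median over all genes tested was 0.00426. For 1274 of the 1285 the ranges of the groups did not overlap, which was so for 27% of all genes tested (11% with all mutant libraries above WT and 16% with all below). The call held with each of the 6 libraries left out in turn for 619 genes, 85 of them higher. The fewest, 770 genes, were called without WT replicate 1. With only the 6 libraries in the fit, in place of all 28 libraries from day 3.5 on, 580 genes were called, 499 of them among the 1285.

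**Figure D1:**
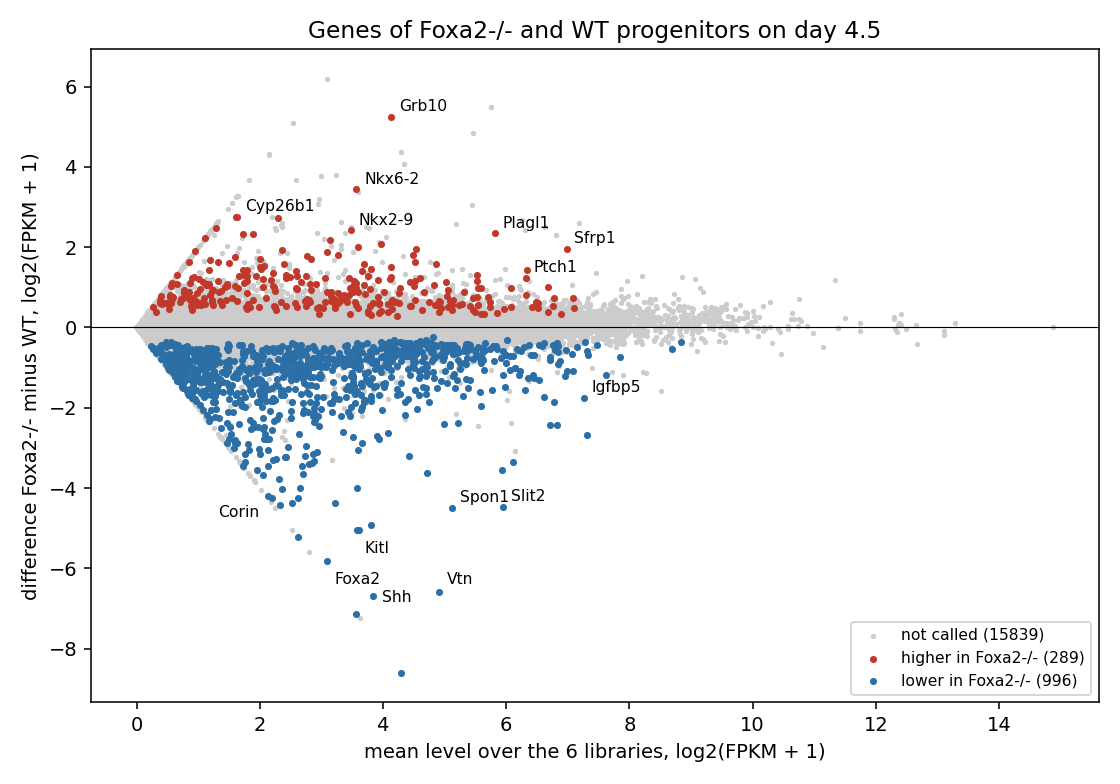
Difference between Foxa2-/- and WT cells (vertical axis, log2(FPKM + 1)) against the mean level over the 6 libraries (horizontal axis) for each of the 17124 genes tested, with the 289 called higher in Foxa2-/- cells in red, the 996 called lower in blue and the rest in grey. Shh, Vtn and Foxa2 lie between -5.81 and -6.70, and Grb10 at 5.24 is the highest called gene; the called points below Shh are small RNAs.

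The largest falls among protein-coding genes were mostly those of floor plate genes. Of the 15 largest, 9 belonged to an 18-gene floor plate list and 1 was Foxa2. The other 5 were Metrnl, Kitl, Arhgap6, Ppfibp2 and Adamts16. Metrnl, a secreted relative of the neurotrophic factor meteorin, had 0.920, 1.71 and 0.739 FPKM in Foxa2-/- libraries, against 130, 51.8 and 47.0 FPKM in WT libraries (difference -5.05 ± 0.34, SE). Kitl, the ligand of the receptor tyrosine kinase Kit, had 0.935, 1.37 and 1.09 FPKM in Foxa2-/- libraries, against 102, 44.9 and 72.7 FPKM in WT libraries (-5.05 ± 0.27). Both genes were thus near 1 FPKM in every mutant library and above 40 FPKM in every WT library. Ppfibp2, a liprin of the beta class, averaged 0.628 FPKM in Foxa2-/- and 26.4 FPKM in WT cells, and the extracellular protease Adamts16 averaged 0.346 and 18.8 FPKM in the same order. Some small RNAs showed larger nominal differences: Gm26202 and Snord107, 2 small nucleolar RNAs, were listed at 0 in all 3 Foxa2-/- libraries, against 210 to 543 and 111 to 177 FPKM in WT libraries. These 2 were named after their values were seen, poly-A selection does not target such RNAs, and their calls did not hold when each library was left out.

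Floor plate genes were the group that fell furthest. Of the 17 members of the list that could be tested, 14 fell and 0 rose, with a median of -4.20, and 9 were lower by 4 or more log2 units. The called shares were 82.4% lower and 0% higher, against 5.82% and 1.69% of all genes tested. The list is one of textbook floor plate genes, and Foxa2 itself was left out of it. Shh (ENSMUSG00000002633, GRCm38 chr5:28456815-28467256), the ligand that floor plate cells secrete, had 0.179, 0.781 and 0.291 FPKM in Foxa2-/- libraries, against 185, 117 and 138.5 FPKM in WT libraries. No mutant library reached 1 FPKM and no WT library was under 100, which gave a difference of -6.70 ± 0.19 (limma adjusted p = 1.14e-15). Foxa1, the closest forkhead relative of Foxa2, had 0.468, 0.377 and 0.364 FPKM in Foxa2-/- libraries, against 40.9, 19.3 and 21.6 FPKM in WT libraries (-4.25 ± 0.22). Ferd3l, a basic helix-loop-helix factor, showed the same separation, with 0.0499 ± 0.0865 FPKM in Foxa2-/- and 19.5 ± 6.08 FPKM in WT cells (SD, n = 3 each). Lmx1b, a LIM homeodomain factor, fell less, to 2.00 ± 1.21 FPKM in Foxa2-/- cells, against 8.72 ± 4.44 FPKM in WT cells (-1.67 ± 0.47, adjusted p = 0.029).

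The promoters of 2 genes of this list held a forkhead motif. They are shown with that of Nkx2-2, the p3 gene described next, as the sequence context of one fallen transcription factor, one fallen guidance ligand and one risen factor. RefSeq promoters (GRCm38.p6, 250 bases before to 50 after the start, 5′ to 3′ on the gene's strand) were found for 8 of the 14 called floor plate genes. The Foxa1 window is chr12:57546062-57546361 on the minus strand, the Slit2 window chr5:47982905-47983204 on the plus strand and the Nkx2-2 window chr2:147186353-147186652 on the minus strand; capitals mark the forkhead motif.
Foxa1: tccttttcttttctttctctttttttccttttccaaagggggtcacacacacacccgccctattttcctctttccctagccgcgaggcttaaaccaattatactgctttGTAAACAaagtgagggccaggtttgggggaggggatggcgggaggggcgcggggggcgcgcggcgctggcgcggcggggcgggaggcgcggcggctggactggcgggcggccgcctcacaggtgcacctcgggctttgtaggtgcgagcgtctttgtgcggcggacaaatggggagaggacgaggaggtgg
Slit2: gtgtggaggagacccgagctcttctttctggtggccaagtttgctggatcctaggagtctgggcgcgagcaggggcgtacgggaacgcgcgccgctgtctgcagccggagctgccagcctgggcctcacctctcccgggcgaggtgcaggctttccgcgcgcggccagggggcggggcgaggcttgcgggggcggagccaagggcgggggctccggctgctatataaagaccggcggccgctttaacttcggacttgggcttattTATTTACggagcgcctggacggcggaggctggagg
Nkx2-2: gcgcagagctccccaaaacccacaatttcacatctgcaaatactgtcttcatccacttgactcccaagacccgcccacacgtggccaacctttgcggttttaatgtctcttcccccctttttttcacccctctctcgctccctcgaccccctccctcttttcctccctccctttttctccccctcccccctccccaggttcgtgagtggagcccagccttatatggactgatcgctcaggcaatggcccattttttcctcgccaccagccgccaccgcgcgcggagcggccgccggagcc
The search used TGTTTAC and TATTTAC (forkhead) and TGGGTGGTC (GLI, the factors of the SHH pathway) on both strands. Foxa1 held TGTTTAC on the opposite strand (printed as GTAAACA) with its first printed base at -141, and Slit2 held TATTTAC at base 16 after the start. The other 6 floor plate promoters, those of the 3 called p3 genes and the 2 found of the 4 called SHH targets held none of the motifs in these windows. Of 32851 mouse promoters of 300 bases, 3.65% held TGTTTAC, 3.04% TATTTAC and 0.253% TGGGTGGTC, and a match is a description of the letters, not evidence of binding.

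The secreted and membrane proteins of the floor plate list fell as well, but not all to near 0. Vtn, the matrix glycoprotein vitronectin, had 1.38, 3.57 and 1.64 FPKM in Foxa2-/- libraries, against 547, 235 and 196 FPKM in WT libraries (-6.59 ± 0.39). Slit2, a repellent for axons that carry Robo receptors, had 5.27, 14.4 and 22.5 FPKM in Foxa2-/- libraries, against 376, 205 and 319 FPKM in WT libraries (-4.47 ± 0.36). Slit2 therefore kept a measurable level in every mutant library, lowest in replicate 1 and highest in replicate 3. Spon1, the secreted adhesion protein F-spondin, averaged 6.35 ± 0.841 FPKM in Foxa2-/- and 171 ± 59.7 FPKM in WT cells (SD, n = 3 each). Alcam, an adhesion molecule of the immunoglobulin family, averaged 1.08 ± 0.366 and 43.0 ± 12.5 FPKM in the same order. Corin, a membrane serine protease used as a floor plate marker, had 0.0143, 0.207 and 0.0443 FPKM in Foxa2-/- libraries, against 66.4, 11.3 and 14.2 FPKM in WT libraries. WT replicate 1 stood far above the other WT libraries, and the groups did not overlap.

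Ntn1 and Sulf1 stayed clearly expressed in the mutant. Ntn1, the axon attractant netrin-1, had 46.3, 52.1 and 45.6 FPKM in Foxa2-/- libraries, against 329, 251 and 215 FPKM in WT libraries (-2.42 ± 0.29). Sulf1, an enzyme that edits heparan sulphate at the cell surface, had 21.3, 19.7 and 21.1 FPKM in Foxa2-/- libraries, against 336, 149 and 215 FPKM in WT libraries (-3.35 ± 0.32). The mutant libraries lay close together for both genes. The weakest calls of the list were Nrcam, an axonal adhesion molecule (-1.37 ± 0.27), and Foxj1, the regulator of motile ciliogenesis (-1.30 ± 0.39, adjusted p = 0.048). The call of Lmx1b ended with only the 6 libraries in the fit (adjusted p = 0.125), without the filter (0.0510), and without WT replicate 1 or 2 or Foxa2-/- replicate 2 or 3 (0.0611 to 0.174). That of Foxj1 ended with only the 6 libraries (0.169), without the filter (0.0786), with the replicate block (0.0585) or quantile normalization (0.0531), and without any one library other than WT replicate 3 (0.10 to 0.277). Slit1 (difference -1.0, adjusted p = 0.159), Slit3 (-0.54, adjusted p = 0.149) and Bmper (-0.06) were not called, and Lmx1a did not pass the filter on low values.

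**Figure D2:**
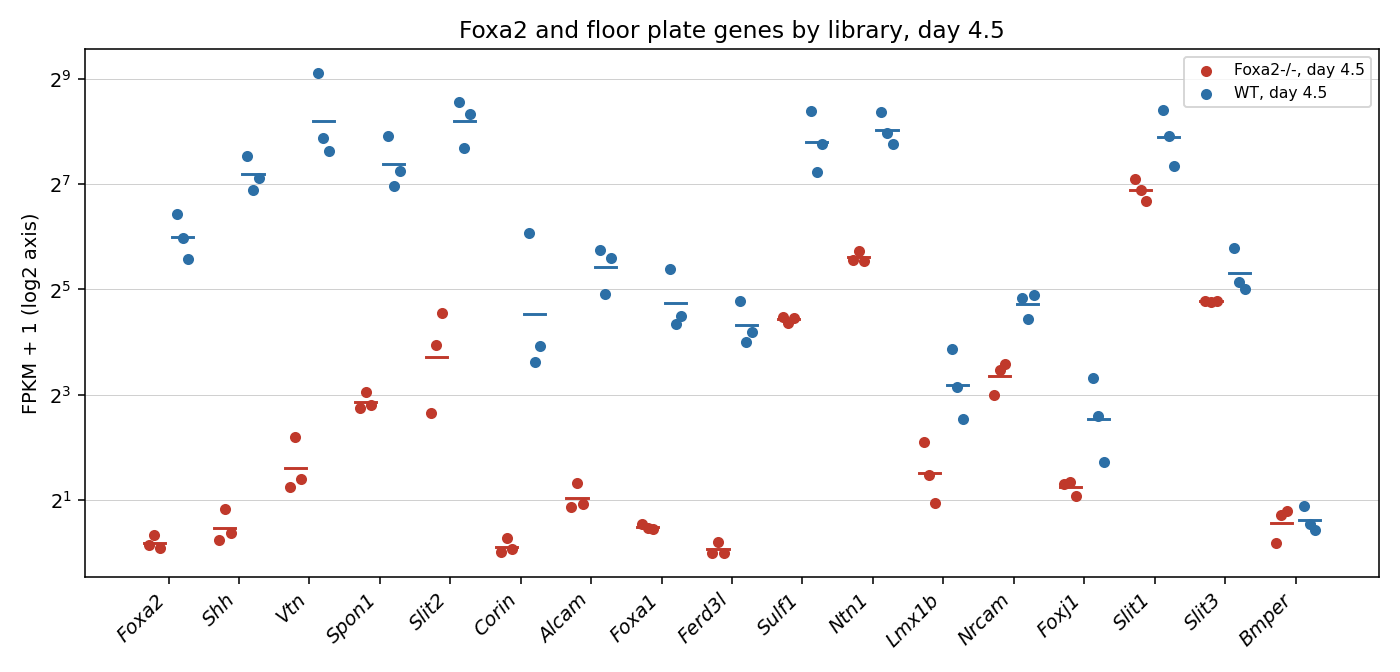
FPKM + 1 in each library (log2 axis) for Foxa2 and tested floor plate genes, with Foxa2-/- in red at the left of each gene and WT in blue at the right; points are libraries and bars are means on the log scale. From Foxa2 to Foxj1 the 3 Foxa2-/- libraries lie under the 3 WT libraries, and the gap narrows from Shh (-6.70) to Foxj1 (-1.30).

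Homeodomain genes of the adjacent p3 domain rose in Foxa2-/- progenitors: of the 7 p3 genes tested, 3 rose and 0 fell. These shares were 42.9% and 0%, against 1.69% higher and 5.82% lower over all genes tested. Nkx2-2 (ENSMUSG00000027434, GRCm38 chr2:147177546-147194243), the defining p3 factor, had 44.8, 46.1 and 42.2 FPKM in Foxa2-/- libraries, against 7.87, 14.2 and 11.1 FPKM in WT libraries. The mutant libraries lay close together and far above every WT library, a difference of 1.95 ± 0.29 (limma adjusted p = 1.05e-04). Nkx2-9, its close relative in the same domain, had 30.5, 29.0 and 17.2 FPKM in Foxa2-/- libraries, against 1.82, 9.18 and 2.93 FPKM in WT libraries (2.42 ± 0.37). Nkx6-2, a repressor of the ventral neural tube, had 62.8, 37.8 and 23.0 FPKM in Foxa2-/- libraries, against 1.98, 5.44 and 1.42 FPKM in WT libraries (3.44 ± 0.49). The groups did not overlap for either gene, and WT replicate 2 was the WT library closest to the mutant for all 3. Nkx6-1, a factor shared by the ventral domains, did not follow: it averaged 48.7 FPKM in Foxa2-/- and 44.6 FPKM in WT cells, with overlapping groups (0.15 ± 0.26, adjusted p = 0.822). Neurog3, Nkx2-1 and Sim1 averaged under 1 FPKM in both groups and were not called. The median of the 7 was 0.22. The call of Nkx2-9 ended with only the 6 libraries in the fit (adjusted p = 0.0826).

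Transcripts that SHH signalling induces also rose, while the ligand's own transcript was near 0 in the mutant. Of 8 feedback targets, 4 rose (50%, against 1.69% of all genes tested) and 0 fell (against 5.82%), with a median of 0.84. Gli1, a transcription factor that serves as the standard readout of the pathway, had 18.4, 19.6 and 13.6 FPKM in Foxa2-/- libraries, against 2.34, 8.77 and 3.29 FPKM in WT libraries (1.79 ± 0.40, adjusted p = 0.0066). Ptch1, the SHH receptor that holds Smoothened inactive, had 132, 122 and 112 FPKM in Foxa2-/- libraries, against 44.0, 62.4 and 47.8 FPKM in WT libraries (1.24 ± 0.20). The groups were apart for both, with WT replicate 2 the highest WT library. Mycn, a proliferation factor downstream of SHH, averaged 31.4 FPKM in Foxa2-/- and 14.7 FPKM in WT cells (1.13 ± 0.30, adjusted p = 0.020). Hhip, a membrane protein that traps SHH, was not called (0.55, adjusted p = 0.366), nor were Rab34 (0.39), Ccnd1 (-0.37) and Ccnd2 (-0.50). The calls of Gli1 and Mycn ended with only the 6 libraries in the fit (adjusted p = 0.0988 and 0.147) and without WT replicate 1 (0.0583 and 0.149). That of Mycn also ended without WT replicate 3 or Foxa2-/- replicate 1 or 2 (0.0584 to 0.0919).

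Of the 20 genes for the release, reception and transduction of the ligand, 2 rose (10%) and 3 fell (15%), and the median was 0.05. Over all genes tested these shares were 1.69% and 5.82%. Gli2, the main activator among the GLI factors, averaged 4.11 FPKM in Foxa2-/- and 1.09 FPKM in WT cells (1.27 ± 0.28). Evc2, a ciliary protein that promotes signalling below Smoothened, averaged 7.74 and 4.37 FPKM in the same order. Cdon, a coreceptor that binds SHH, had 3.37, 2.75 and 1.39 FPKM in Foxa2-/- libraries, against 23.5, 7.96 and 16.4 FPKM in WT libraries (-2.20 ± 0.34), and its groups did not overlap. Gpc3, a glypican that binds hedgehog at the cell surface, averaged 53.2 and 188 FPKM in the same order (-1.73 ± 0.44), and Stk36, the mouse counterpart of the Drosophila kinase fused, averaged 5.25 and 10.7 FPKM (-0.90 ± 0.18). Smo, the target of SAG, differed by 0.19 (adjusted p = 0.553) and Sufu by 0.16. Of the other coreceptors, Boc (0.71, adjusted p = 0.110), Gas1 (-0.08) and Lrp2 (0.31) were not called. Evc (0.68, adjusted p = 0.054) and Spop (-0.38, adjusted p = 0.052) lay just past the threshold. The calls of Cdon, Gpc3, Gli2 and Evc2 ended with only the 6 libraries in the fit (adjusted p of 0.0609 to 0.109). That of Gpc3 also ended without WT replicate 1 or Foxa2-/- replicate 2 or 3 (0.0573 to 0.121), and that of Evc2 without any one library other than WT replicate 2 (0.0507 to 0.142).

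**Figure D3:**
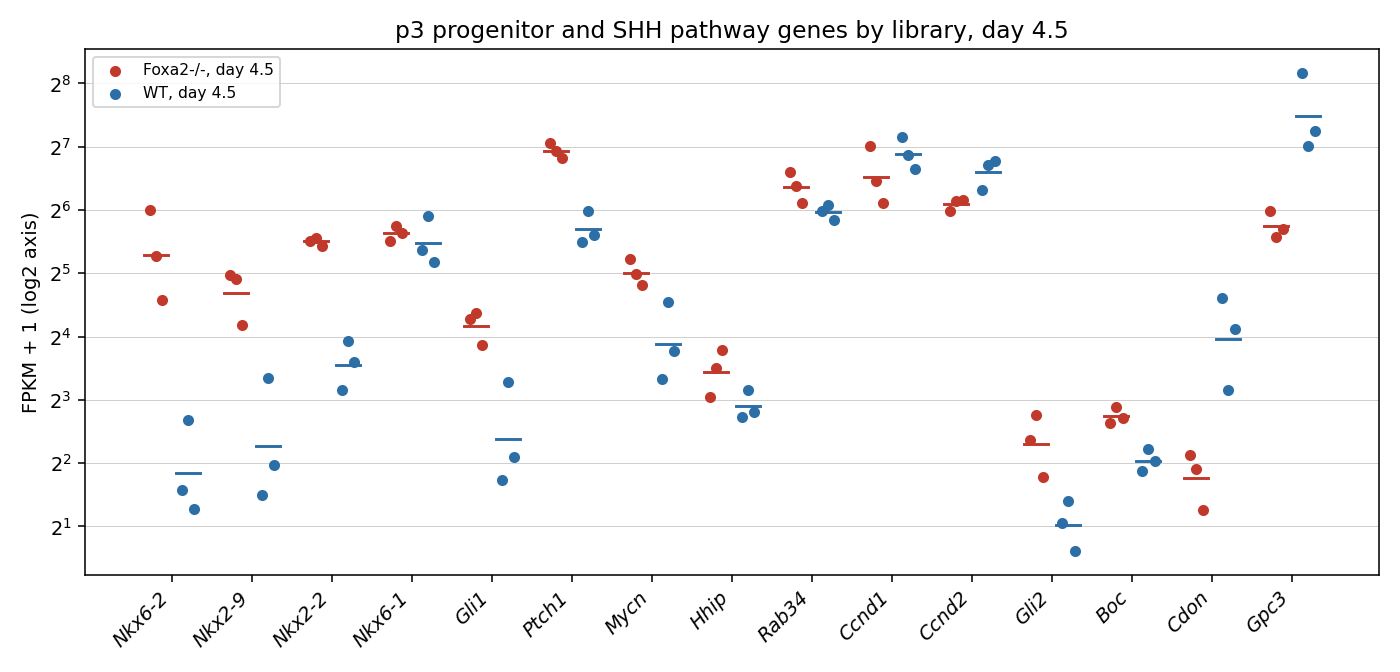
FPKM + 1 in each library (log2 axis) for p3 progenitor genes, SHH feedback targets and 4 genes of SHH transduction or reception, with Foxa2-/- in red at the left of each gene and WT in blue at the right; points are libraries and bars are means on the log scale. Nkx6-2, Nkx2-9, Nkx2-2, Gli1, Ptch1, Mycn and Gli2 lie higher in all 3 Foxa2-/- libraries, Cdon and Gpc3 lower, and Nkx6-1 overlaps.

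Components of other signalling pathways changed unevenly. The list counts given from here on stand against 1.69% higher and 5.82% lower over all genes tested. Of 12 tested TGF-beta genes, 6 fell and 0 rose (median -0.84). These were the latent complex protein Ltbp1 (3.58 FPKM in Foxa2-/- and 16.1 FPKM in WT cells, -1.88 ± 0.26), the receptors Tgfbr2 (-1.62) and Tgfbr3 (-0.98), the ligands Tgfb2 (-1.33) and Tgfb3 (-0.80), and the corepressor Skil (-0.92). Of 14 BMP genes, 4 fell and 0 rose (median -0.23). The antagonist Nog had 2.29, 1.04 and 1.09 FPKM in Foxa2-/- libraries, against 11.8, 5.81 and 6.30 FPKM in WT libraries (-1.84 ± 0.25). The protease Bmp1, the ligand Bmp4 and the modulator Twsg1 fell by 1.51, 1.43 and 0.68. Of 4 ID genes, which encode inhibitors of basic helix-loop-helix factors and are induced by BMPs in many cells, Id4 and Id2 rose, by 1.57 and 1.16, and Id1 (0.92) and Id3 (-0.22) were not called. Many of these calls were not stable. Fitting only the 6 libraries ended those of Tgfbr2, Tgfbr3, Nog, Bmp4, Twsg1 and Id2 (adjusted p of 0.0550 to 0.229), and leaving out WT replicate 1 ended those of Tgfbr3, Bmp1, Bmp4 and Twsg1 (0.0611 to 0.136). Calls also ended without Foxa2-/- replicate 1 for Tgfbr3, Bmp4 and Skil, without Foxa2-/- replicate 2 for Twsg1 and Skil, without Foxa2-/- replicate 3 for Bmp1 and Twsg1, without WT replicate 2 for Bmp4 and without WT replicate 3 for Skil (0.0506 to 0.0813). Each of the 4 falls of BMP genes thus lost its call in at least 1 of these fits.

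In the WNT list, 4 of 23 genes rose and 3 fell (median 0.28). Sfrp1, a secreted protein that binds WNTs, had 216, 266 and 265 FPKM in Foxa2-/- libraries, against 49.3, 68.9 and 74.2 FPKM in WT libraries. The lowest mutant library was far above the highest WT library (1.95 ± 0.14, adjusted p = 4.76e-09). The receptors Fzd7 and Fzd9 rose by 1.32 and 1.08, and the antagonist Dkk1 averaged 1.26 FPKM in Foxa2-/- and 0.0296 FPKM in WT cells. The ligands Wnt4 (0.431 FPKM in Foxa2-/- and 5.30 FPKM in WT cells, -2.11 ± 0.21) and Wnt7b (-0.87) and the secreted protein Dkk3 (-1.54) fell. Of 17 Notch genes, 3 fell and 0 rose (median 0.25). Hey1, a target of Notch, had 22.7, 21.4 and 26.4 FPKM in Foxa2-/- libraries, against 105, 89.6 and 89.5 FPKM in WT libraries (-1.96 ± 0.17), Notch2 fell by 1.05, and Heyl, averaging 0.141 FPKM in Foxa2-/- and 0.822 FPKM in WT cells, by 0.66. Hes5, a Notch target of progenitors, differed by 1.96 but was not called (adjusted p = 0.252). Of 15 FGF genes, Fgf9 (4.65 FPKM in Foxa2-/- and 0.692 FPKM in WT cells) and Fgf3 (1.67 and 0.246 FPKM in the same order) rose, and the receptor Fgfr2 fell by 1.29. The fit of only the 6 libraries ended the calls of Fzd9, Dkk1, Wnt7b, Dkk3, Notch2 and Heyl (adjusted p of 0.0745 to 0.182). Leaving out 1 library ended that of Fzd9 for WT replicates 1 and 3 and Foxa2-/- replicates 1 and 2, that of Dkk1 for all but Foxa2-/- replicate 1, that of Wnt7b for all but WT replicate 1, those of Notch2 and Fgf3 for all but WT replicate 2, and that of Heyl for all but WT replicate 3 (0.0541 to 0.228). Notch2 and Fzd9 also lost theirs without the filter (0.0658 and 0.0531), and Heyl with the replicate block (0.0506), quantile normalization (0.0614) and the length correction (0.0512).

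The retinoic acid list had 1 called gene of 13 (7.69%), near the 7.5% of all genes that were called. Cyp26b1, an enzyme that degrades retinoic acid, had 7.67, 6.93 and 6.56 FPKM in Foxa2-/- libraries, against 0.327, 0.179 and 0.0922 FPKM in WT libraries (2.75 ± 0.38, adjusted p = 4.56e-05). It was above 6 FPKM in every mutant library and near 0 in every WT library, whereas Cyp26a1 (0.49) was not called. The median of the list was -0.55. Of 17 tested HOX genes, which mark position along the hindbrain and spinal cord, 0 were called by limma (smallest adjusted p = 0.128). All 17 differences were below 0, with a median of -0.81, against 0.00426 over all genes. They come from the same 6 libraries and are not 17 independent observations.

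Guidance genes outside the floor plate list were counted by family. Of 20 semaphorin, plexin and neuropilin genes, 6 fell and 1 rose (median -0.13). The receptors Nrp1 and Nrp2 fell by 2.2 and 1.88. Nrp2 had 4.04, 5.36 and 6.11 FPKM in Foxa2-/- libraries, against 21.4, 21.8 and 21.1 FPKM in WT libraries, with little spread in either group. The ligands Sema3c, Sema5a, Sema3b and Sema3e fell by 2.01, 1.61, 1.49 and 1.17, and Sema3f rose by 1.18. Of 9 receptors for netrins and slits, Unc5b rose by 0.55 and 0 fell, and Dcc, the receptor for attraction to netrin-1, differed by -0.02. Of 18 ephrins and Eph receptors, 0 were called by limma (smallest adjusted p = 0.063). Fitting only the 6 libraries ended the calls of Sema3b, Sema3c, Sema3f and Unc5b (adjusted p of 0.0735 to 0.113). That of Sema3b also ended without WT replicate 1 or Foxa2-/- replicate 2 or 3 (0.0856 to 0.185), and that of Unc5b without WT replicate 1 or 3 or Foxa2-/- replicate 1 or 2 (0.133 to 0.169) and with a pseudocount of 0.1 (0.0794).

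Of 12 epithelial genes, 2 fell: Cdh1, which encodes E-cadherin (1.09 FPKM in Foxa2-/- and 9.59 FPKM in WT cells, -2.34 ± 0.23), and the keratin Krt18 (5.24 and 39.5 FPKM in the same order, -2.71 ± 0.48). Among classical cadherins Cdh6 also fell (-1.25) and Cdh20 rose (0.89), while Cdh2, which encodes N-cadherin, differed by -0.33. In the matrix list of 23 genes, Fras1 (-1.88), Col2a1 (-1.52) and Fn1 (-1.34) fell and Col11a1 rose (0.52). Of 6 factors known for driving mesenchymal transitions, Twist1 fell by 1.46 and Zeb2 rose by 0.66. Of 10 smooth muscle genes, Tagln, an actin-binding protein, averaged 6.34 FPKM in Foxa2-/- and 68.9 FPKM in WT cells (-3.20 ± 0.77) and the myosin light chain Myl9 fell by 2.17. Of 16 motile cilia genes, 4 fell and 0 rose (median -0.57): the dynein heavy chains Dnah9 (0.0645 FPKM in Foxa2-/- and 2.23 FPKM in WT cells) and Dnah11, Nme5, and Foxj1, which the floor plate list holds too. Of these 4, Dnah9 alone kept its call with only the 6 libraries in the fit, which ended those of Dnah11, Nme5, Foxj1, Col2a1, Col11a1 and Cdh20 (adjusted p of 0.0779 to 0.190). Leaving out any one library ended the calls of Cdh6 and Col11a1 (0.0566 to 0.155), and any one but WT replicate 3 those of Myl9 and Foxj1 (0.0754 to 0.277). The call of Dnah11 ended without any one library but WT replicate 2, that of Nme5 without WT replicate 1 or any one Foxa2-/- library, that of Col2a1 without WT replicate 1 or Foxa2-/- replicate 2 or 3, and that of Cdh20 without WT replicate 1 or 3 or Foxa2-/- replicate 1 (0.0583 to 0.249). Tagln lost its call without Foxa2-/- replicate 3 (0.0515), and Myl9 also without the filter (0.0627).

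**Figure D4:**
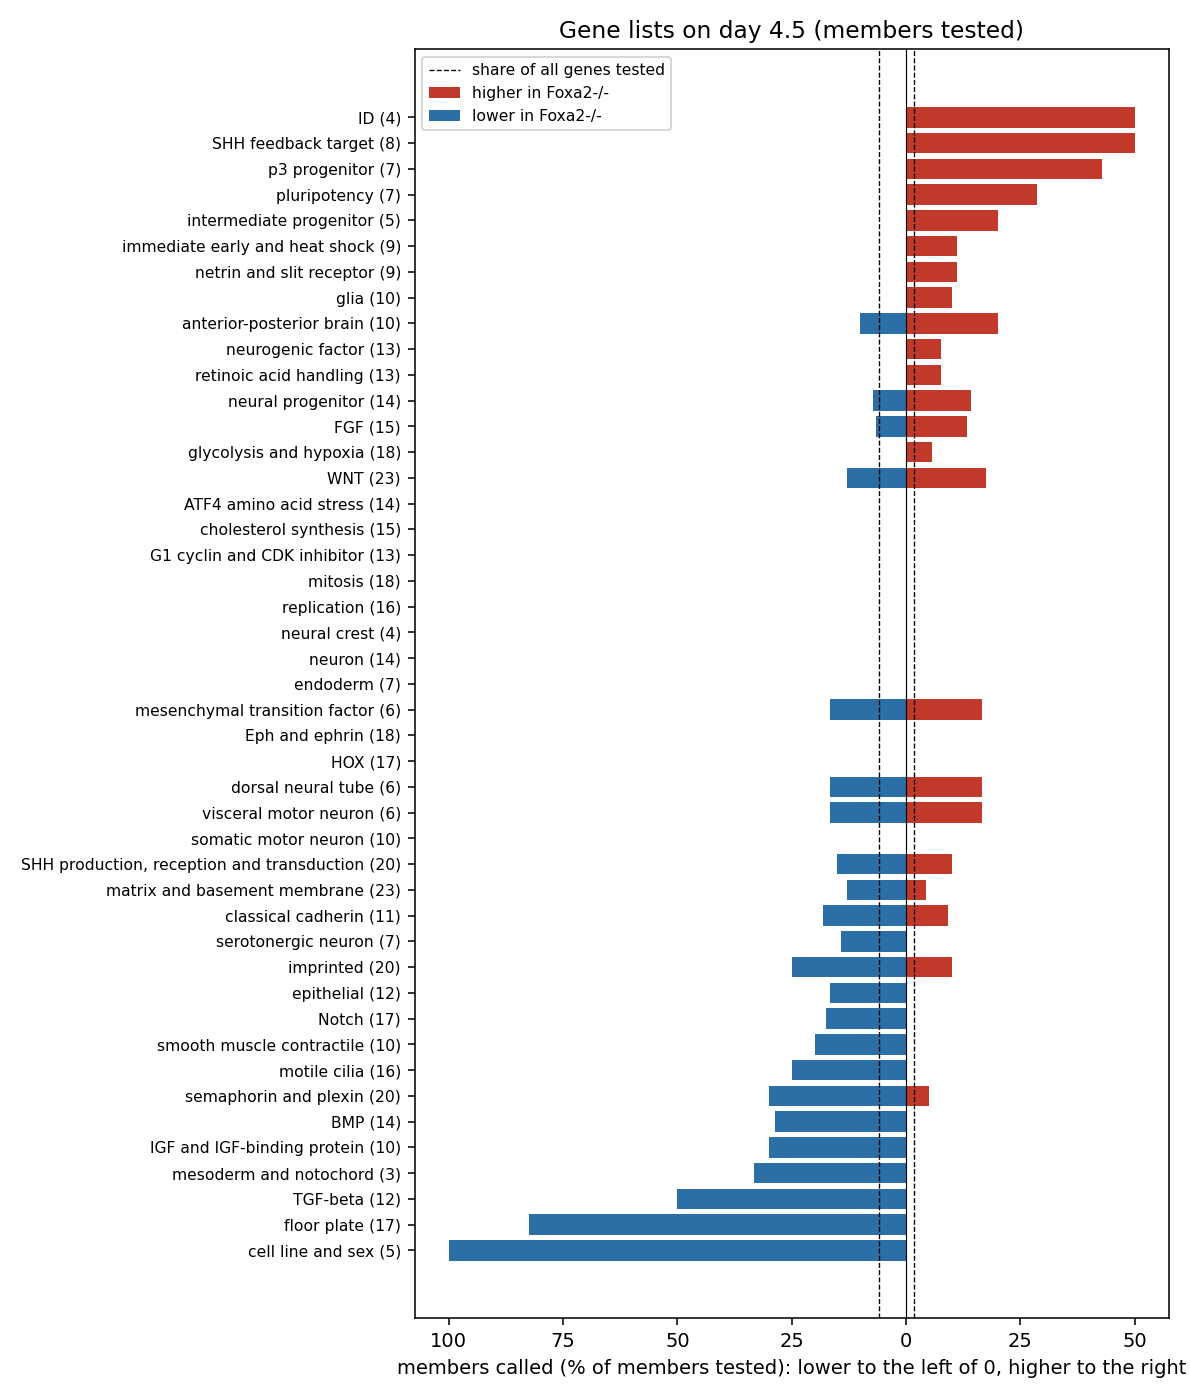
Share of the tested members of each gene list that were called, as a percentage of the members tested (number in brackets), with those lower in Foxa2-/- cells in blue to the left of 0 and those higher in red to the right; dashed lines mark the shares of all genes, 5.82% lower and 1.69% higher. The cell line and sex list, with 5 members tested, has 100% of them to the left and the floor plate list 82.4%. The lists were chosen with earlier results of these data known. The SHH feedback targets have 50% and the p3 genes 42.9% to the right.

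Imprinted genes, which are expressed from 1 parental allele, gave the largest rise among protein-coding genes. Of 20 tested, 2 rose and 5 fell (median -0.30). Grb10, an adaptor that restrains insulin and IGF receptors, had 110, 117 and 93.8 FPKM in Foxa2-/- libraries, against 3.86, 1.08 and 1.30 FPKM in WT libraries (5.24 ± 0.29, adjusted p = 7.27e-11). Plagl1, a zinc finger factor, had 134.6, 128.2 and 115 FPKM in Foxa2-/- libraries, against 31.9, 22.4 and 19.2 FPKM in WT libraries (2.34 ± 0.28). The growth factor Igf2 (5.89 FPKM in Foxa2-/- and 44.2 FPKM in WT cells, -2.62 ± 0.41) and its neighbour H19, a noncoding RNA (43.8 and 245 FPKM in the same order, -2.43 ± 0.42), fell, as did Peg3 (-1.86), Snrpn (-1.07) and Zrsr1 (-0.90). Of 10 IGF genes, 3 fell: the binding proteins Igfbp3 (0.964 FPKM in Foxa2-/- and 20.5 FPKM in WT cells, -3.44 ± 0.33) and Igfbp5 (-1.76), and the receptor substrate Irs1 (-1.79). The call of Igfbp5 ended with only the 6 libraries in the fit (adjusted p = 0.0849).

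Some of these differences were measured in undifferentiated cells as well. In undifferentiated cells, with 3 Foxa2-/- and 2 WT libraries fitted in a separate table, 62 of 16465 genes passed (0.377%), with 13 above WT (0.079%) and 49 below it (0.298%), and 25 of them were also tested on day 4.5. Of those 25, 12 were called in the same direction on day 4.5, which is 48% of them and 1.14% of the 1056 day 4.5 calls tested in both tables, and 1 was called in the opposite direction. Grb10 had 73.1, 66.1 and 72.4 FPKM in undifferentiated Foxa2-/- libraries, against 14.9 and 9.80 FPKM in undifferentiated WT libraries. Igf2 and H19 were lower in both (undifferentiated differences -1.61 and -1.34). Arhgap6, a GTPase-activating protein, had 0.567, 0.709 and 0.554 FPKM in undifferentiated Foxa2-/- libraries, against 11.1 and 14.96 FPKM in WT libraries, and on day 4.5 it had 0.0573, 0.380 and 0.432 FPKM, against 22.4, 18.2 and 18.7 FPKM. The annotation of Hccs overlaps that of Arhgap6 on the X chromosome, and Hccs was lower at both times as well (-1.02 and -0.98). Also called lower at both times were Bmp4, Kdm5d, Gm21882, Ppl and Timp2, and Clic6 was higher at both. Of the 15 largest rises and 15 largest falls on day 4.5, Grb10 and Arhgap6 were the only 2 called in undifferentiated cells. Gm21882 is annotated on the Y chromosome. On day 4.5 it was listed at 0 in all 3 Foxa2-/- libraries, against 1.479, 1.525 and 1.502 FPKM in WT libraries. Its day 4.5 call held with each of the 6 libraries left out in turn. In undifferentiated cells it was at 0 in the 3 Foxa2-/- libraries, against 0.386 and 0.630 FPKM in WT libraries. The Y-linked genes Kdm5d, Uty, Eif2s3y and Ddx3y were also lower in Foxa2-/- cells on day 4.5, by 1.20, 0.91, 0.90 and 0.88. Fitting only the 6 libraries ended the day 4.5 calls of these 4 and of Bmp4, Clic6, Ppl and Timp2 (adjusted p of 0.0531 to 0.190). Calls also ended without WT replicate 1 or 3 or Foxa2-/- replicate 1 for Eif2s3y (0.0989 to 0.232), without WT replicate 1 or Foxa2-/- replicate 1 for Ddx3y (0.0797 and 0.112), without WT replicate 1 or Foxa2-/- replicate 3 for Timp2 (0.0834 and 0.0511), and without any one library but Foxa2-/- replicate 1 for Clic6 (0.0611 to 0.219). Of 5 tested genes on a list for cell line and sex, 5 were called lower on day 4.5 (100%, against 5.82% of all genes). The smallest limma adjusted p of that list, 7.21e-12, was that of Arhgap6. The list was chosen with earlier results of these data known, so its share is not independent of them. The part of the line difference in the other results was not tested.

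The genes among the 15 largest rises that were not described above belonged to no one list. Pak3, a kinase activated by Rac and Cdc42, had 13.6, 14.7 and 17.8 FPKM in Foxa2-/- libraries, against 3.47, 3.10 and 3.83 FPKM in WT libraries (1.87 ± 0.21). Tle4, a Groucho corepressor, averaged 41.2 FPKM in Foxa2-/- and 11.1 FPKM in WT cells (1.81 ± 0.23). St8sia4, which adds polysialic acid to the adhesion molecule NCAM, averaged 6.40 and 0.501 FPKM in the same order (2.32 ± 0.24). Tox, an HMG-box factor, Pipox, an oxidase of pipecolic acid, and Sparcl1, a secreted matrix protein, rose by 1.78, 2.00 and 1.57. S100g, a calcium-binding protein, had 2.76, 9.24 and 12.0 FPKM in Foxa2-/- libraries, against 0.303, 0.242 and 0 FPKM in WT libraries (2.76 ± 0.40). Its lowest mutant library was replicate 1, the one with the lowest endoderm marker sum, and the part of those markers in this rise was not tested. Dppa5a, a gene of pluripotent cells, was also lowest in replicate 1 among the mutant libraries, with 3.22, 22.8 and 18.8 FPKM in Foxa2-/- libraries, against 1.11, 0.645 and 0.997 FPKM in WT libraries (2.72 ± 0.81, adjusted p = 0.042). Its call ended without any one library but Foxa2-/- replicate 1 (0.0972 to 0.196) and, like that of S100g, with only the 6 libraries in the fit (0.111 for Dppa5a and 0.0543 for S100g). That of Dppa5a also ended with a pseudocount of 0.1 (0.0691), without the filter (0.0706) and with the length correction (0.0525). Pou5f1, which encodes the pluripotency factor Oct4, had 2.25, 2.24 and 4.01 FPKM in Foxa2-/- libraries and was listed at 0 in all 3 WT libraries, while Nanog was under 0.1 FPKM in all 6. Without Foxa2-/- replicate 3, Pou5f1 had an adjusted p of 0.0621. In the pluripotency list, 2 of 7 tested genes were called higher (28.6%, against 1.69% of all genes) and 0 lower.

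Lists of other progenitor and neuronal programmes differed in their called shares, against 1.69% higher and 5.82% lower over all genes tested. These shares were 14.3% higher and 7.14% lower for neural progenitor genes. They were 16.7% in each direction for visceral motor neuron genes, and 14.3% lower for serotonergic genes. Of 14 neural progenitor genes, the SOX factor Sox3 (22.2 FPKM in Foxa2-/- and 8.29 FPKM in WT cells, 1.46 ± 0.43) and the POU factor Pou3f3 (1.21) rose, and Sox21 (13.9 and 29.9 FPKM in the same order, -1.03 ± 0.17) fell. With only the 6 libraries in the fit, Sox3, Pou3f3 and Sox21 lost their calls (adjusted p = 0.124, 0.177 and 0.050). That of Sox3 also ended without any one library but WT replicate 2 (0.0871 to 0.203), and that of Pou3f3 without WT replicate 1 or any one Foxa2-/- library (0.0708 to 0.203). Of 10 somatic motor neuron genes, 0 were called by limma (smallest adjusted p = 0.080), including Olig2 (1.07, adjusted p = 0.337) and Mnx1 (-0.33). Of 6 visceral motor neuron genes, 1 rose and 1 fell. The rise was that of Ret, a receptor tyrosine kinase (7.23 FPKM in Foxa2-/- and 2.66 FPKM in WT cells), and its call ended with only the 6 libraries (adjusted p = 0.0763) and without WT replicate 1 or 3 or Foxa2-/- replicate 1 (0.0656 to 0.0941). In the serotonergic list Ddc, which encodes aromatic amino acid decarboxylase, fell to 2.13 ± 0.328 FPKM in Foxa2-/- cells, against 12.8 ± 2.19 FPKM in WT cells (SD, n = 3 each). Of 14 neuron genes, 0 were called by limma (smallest adjusted p = 0.258), and 12 had differences below 0. Their median was -0.50, against 0.00426 over all genes. How far the neuron marker sums of WT replicates 2 and 3, given above, go with the values of these 14 genes was not tested. The lists for replication (16 genes, median 0.25), mitosis (18, median 0.19) and G1 control (13, median -0.18) had 0 called genes as well. Over all 46 lists, 12 had no called member, and the called members numbered 38 higher and 71 lower.

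The day 4.5 difference was then tested against the difference on each neighbouring day, and both tests share the 6 libraries of day 4.5. For Nkx2-2 the means were 14.3 ± 5.10 FPKM in Foxa2-/- and 9.10 ± 1.14 FPKM in WT cells on day 3.5, 44.4 ± 2.01 and 11.04 ± 3.16 FPKM on day 4.5, and 58.1 ± 7.46 and 15.1 ± 4.23 FPKM on day 5.5 (SD, n = 3 each). The change in the genotype difference of Nkx2-2 from day 3.5 to day 4.5 was 1.41 ± 0.41 (SE), which did not pass the adjustment (adjusted p = 0.792). Across all genes, 1 had a genotype difference on day 4.5 that differed from that on day 3.5 (0.00584%, with 717 at an unadjusted p under 0.05), and 3 had one that changed between days 4.5 and 5.5 (0.0175%, with 625 unadjusted). The one gene from day 3.5 to day 4.5 was Vax1, a homeodomain factor of the ventral forebrain and optic stalk. Vax1 had 6.98, 4.22 and 3.65 FPKM in Foxa2-/- libraries of day 4.5, against 0, 0.0381 and 0.0588 FPKM in WT libraries. On day 3.5 it averaged 0.576 ± 0.0604 FPKM in Foxa2-/- and 0.511 ± 0.470 FPKM in WT cells. The difference thus rose by 2.38 ± 0.35 (limma adjusted p = 0.020). Its call ended when 1 of 5 libraries was left out, 2 of them WT libraries of day 4.5 (range of adjusted p with each of 12 libraries left out in turn 0.00261 to 0.112). Kcnmb2, a potassium channel subunit, and Gcnt2, a glycosyltransferase, were lower in Foxa2-/- cells on day 4.5 and further below WT on day 5.5 (changes of -1.12 ± 0.16 and -1.23 ± 0.20), and the pseudogene Gm8757 was higher on day 4.5 and lower on day 5.5 (-2.22 ± 0.37). The calls of Kcnmb2, Gcnt2 and Gm8757 ended without 5, 9 and 9 of 12 libraries in turn, and all of these genes but Gcnt2 were named after their values were seen. None of the 540 tested genes of the lists was called in either test; the median SE of these changes over the genes called on day 4.5 was 0.272, so a missing call does not show that the days were alike.

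**Figure D5:**
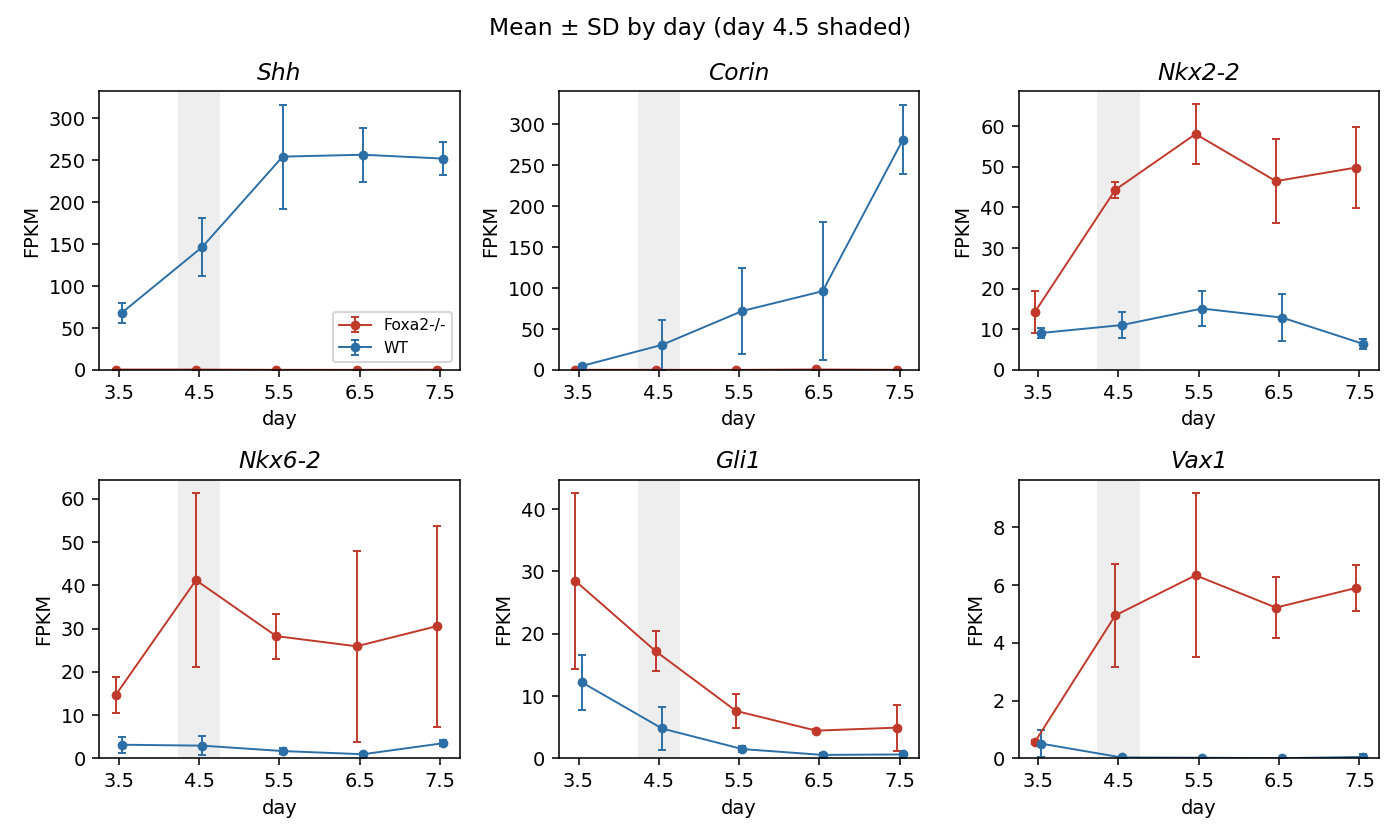
FPKM by day (mean ± SD; 3 libraries, 2 for Foxa2-/- on days 6.5 and 7.5) for Shh, Corin, Nkx2-2, Nkx6-2, Gli1 and Vax1, with Foxa2-/- in red and WT in blue, with day 4.5 shaded. Shh and Corin stay near 0 in Foxa2-/- cells on every day, Nkx2-2 and Vax1 climb between days 3.5 and 4.5 in Foxa2-/- cells, to 44.4 and 4.95 FPKM, and Gli1 declines in both genotypes.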

How the data were processed

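The authors deposited FPKM per gene in tables of several libraries, and the table used holds 28 libraries of days 3.5 to 7.5. Per the submitters' processing notes, the tools were TopHat2 2.0.4, Cufflinks 2.1.1, HTSeq 0.6.1, limma, CASAVA and bcl2fastq 1.8.3, and the build was GRCm38 (mm10). Which of them made the FPKM, and from which annotation, is not given in the sources used here. In the table of days 3.5 to 7.5, 3 columns that belong to no sample were not used. Repeated rows were removed (48), and GENCODE M21 gave positions and types for 98.3% of the genes tested.

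The filter kept genes with 1 FPKM or more in 2 or more of the libraries. In R 4.3.3, limma 3.58.1 fitted log2(FPKM + 1) with 1 mean per genotype and day over all 28 libraries and no further scaling, which pools the spread over all days. Contrasts were moderated by empirical Bayes with a trend on the mean level and tested two-sided, with Benjamini-Hochberg adjustment at 0.05 over all genes. Undifferentiated cells were fitted in the table of 15 libraries. Fits were tested on simulated data. Figures were drawn in Python 3.11.15 with matplotlib 3.10.9. FPKM holds no counts, so no counting interval is given, and a value of exactly 0 may be a failed estimate: in each library, 114 to 149 genes were at 0 although another library of its group reached 5 FPKM.

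Named genes are Foxa2, the 15 largest rises and falls among called protein-coding genes at a mean of 5 FPKM or more with no overlap, no such zero and a call that held with each library left out, up to 4 called members per list and direction, and the members of the floor plate, p3 and SHH lists. Other genes, such as further members of a list, were named after their values were seen. A few genes that this rule names are not reported here, in text or figures, and the counts include them. The comparison, the lists and the tests were chosen with earlier results of these data known, and no p-value is given for a list. Alternatives were another pseudocount, 2 other filters, 2 scalings, the 6 libraries alone, a replicate block, a length correction, zeros as missing values and leaving out each library. The labels number the replicates without a shared origin. Deviations of same-numbered libraries correlated at 0.038, 0.0949 and 0.117, not all over 0.1, and the libraries were not treated as paired.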

Additional observations from a re-analysis of the deposited data

Results flagged for a closer look

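A test of the difference between days singled out 4 genes, and none of them was among the listed genes. The genotype difference of Vax1 was larger on day 4.5 than on day 3.5, by 2.38. From day 4.5 to day 5.5 the genotype difference of Gcnt2 changed by -1.23, that of Kcnmb2 by -1.12 and that of Gm8757 by -2.22. Gcnt2 averaged 0.750 FPKM in Foxa2-/- and 4.44 FPKM in WT cells on day 4.5, and 0.810 and 12.3 FPKM on day 5.5. Kcnmb2 averaged 0.0686 FPKM in Foxa2-/- and 0.691 FPKM in WT cells on day 4.5, and 0.129 and 2.89 FPKM on day 5.5. Gm8757 averaged 1.99 FPKM in Foxa2-/- and 0.228 FPKM in WT cells on day 4.5, and 0.304 and 1.65 FPKM on day 5.5; the source gene of a processed pseudogene can share its reads. The directions of these 4 changes held in every alternative run, whereas their calls did not.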

How the results depend on the processing

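The day 4.5 count was 1219 to 1646 under 8 alternatives (1285 as reported, 1411 with the replicate block), 580 with only the 6 libraries in the fit, which leaves fewer samples to estimate the spread, and 770 to 1305 with 1 library left out. The share of higher genes among the called was 22.5%, and 30% with quantile normalization. The count for day 4.5 against day 3.5, reported as 1, was 0 with a pseudocount of 0.1, 2 without the filter, with the replicate block and with the length correction, 5 with only the groups compared, 220 with isolated zeros as missing and 0 to 9 with 1 library left out. That for day 5.5 against day 4.5, reported as 3, was 1 with the pseudocount, without the filter, with median-of-ratios factors and with the replicate block, 0 with quantile normalization, 238 with zeros as missing and 0 to 11 with 1 library left out. The 12 genes called alike in undifferentiated cells were 2 with only the groups compared, 4 with the replicate block, 37 with zeros as missing and 5 to 11 with 1 library left out. The causes were not tested. Of 152 named or listed genes none reversed on day 4.5 in these alternatives; 54 lost their call with only the 6 libraries and 17 to 36 with 1 library left out. In the pairing check each library correlated best with its own number, a hint from the data only. The medians of the Eph and matrix lists, both near 0, changed sign with quantile normalization, that of the Eph list also with the length correction, and that of the dorsal list only without the filter. Calls of genes under 1 FPKM rest on few fragments.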
